A study of Mus musculus with 2 samples.

Results

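Glycolytic enzymes and Hif1a were described here in cortical myeloid cells of the 5xFAD mouse, a transgenic model of amyloid deposition. The 9 genes were chosen by symbol out of 31053 in the deposited tables. They are Hk2, Gpi1, Tpi1, Gapdh, Pgk1, Pgam1, Pkm and Ldha, which encode 8 enzymes of glycolysis and lactate formation, and Hif1a, which encodes the oxygen-regulated subunit of hypoxia-inducible factor 1. All 9 were detected in both libraries. On mm10, GENCODE places the protein-coding genes at these positions, in the order of the pathway steps: Hk2 (ENSMUSG00000000628, chr6:82725025-82774454, minus strand), Gpi1 (ENSMUSG00000036427, chr7:34201330-34230336, minus strand), Tpi1 (ENSMUSG00000023456, chr6:124810586-124814296, minus strand), Gapdh (ENSMUSG00000057666, chr6:125161715-125166467, minus strand), Pgk1 (ENSMUSG00000062070, chrX:106187100-106203699, plus strand), Pgam1 (ENSMUSG00000011752, chr19:41911923-41918660, plus strand), Pkm (ENSMUSG00000032294, chr9:59656368-59679375, plus strand), Ldha (ENSMUSG00000063229, chr7:46841475-46855627, plus strand) and Hif1a (ENSMUSG00000021109, chr12:73901375-73947530, plus strand). The photoconversion group was male 5xFAD hemizygous mice on a C57BL/6J background that received 5 uL of Visudyne, a light-activated drug, into the cisterna magna at 4 months of age, followed by 5 steps of 689-nm red light through the skull to ablate meningeal lymphatic vessels. The control group was mice of the same sex, genotype, background and age given the drug without light. In both groups the procedure was repeated after 3 weeks and cortex was taken 3 weeks later, at 5.5 months. Cells sorted as live, Ly6G-negative, CD45-positive and CD11b-positive singlets from 3 mice were pooled into 1 droplet-based single-cell RNA library per group. There was therefore no replicate, and no test was made. All intervals are at 95% and cover counting error only, so they hold nothing of the spread between mice.

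Glycolysis converts glucose to pyruvate in the cytosol and yields ATP without oxygen, and lactate dehydrogenase regenerates the NAD that the pathway needs. Hypoxia-inducible factor 1 is controlled mainly at the protein level: with oxygen present, prolyl hydroxylases mark its alpha subunit and the VHL complex directs it to degradation, so transcript levels of Hif1a do not report its activity. Microglia are known to shift between oxidative metabolism and glycolysis when they are activated, and glycolytic enzymes are among the known targets of this factor.

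A barcode was kept where 200 or more genes were detected and mitochondrial genes took no more than 10% of its unique molecular identifiers (UMIs). This left 317 cells and 1816177 UMIs in the photoconversion library and 555 cells and 2422711 UMIs in the control library. Median depth was 3410 UMIs per cell in the photoconversion library and 2670 in the control library. All 13 microglia markers were detected in each library, and the summed level of 4 red blood cell markers was 0. The libraries shared 27 barcodes, of which 11 were kept in the photoconversion library and 0 in the control library. A kept cell was classed by its own UMIs of Cst7, a gene of the disease-associated microglial state, and P2ry12, a purinergic receptor gene of homeostatic microglia. In the photoconversion library 157 cells had more Cst7 than P2ry12, 133 had more P2ry12 than Cst7 and 27 were tied. In the control library these numbers were 207, 290 and 58. Such a class is a range of a ratio and not a cell type: the 2 genes differed by a single UMI in 31 photoconversion cells and 57 control cells. Doublets were not removed.

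The known DNA motif of hypoxia-inducible factors has the core letters ACGTG or GCGTG. In the 250 bases before each RefSeq gene start (assembly GRCm38.p6), searched on both strands with overlapping matches counted, at least 1 match was present in 8 of 11 member windows, since Ldha and Pkm have 2 starts each. Of all 32851 windows of that length, 38.6% held at least 1. ACGTG alone was in 6 of 11 member windows, against 16.6% of all windows. A match is a run of letters and does not show that the factor binds there. The 4 windows shown are those with 2 or more matches of ACGTG, 5′ to 3′ along the gene, with the matches in capitals. Hk2 (chr6:82774455-82774704, minus strand) and Pgk1 (chrX:106186850-106187099, plus strand) lie directly before the annotated gene. Ldha (chr7:46845554-46845803, plus strand) and Hif1a (chr12:73907617-73907866, plus strand) lie before a RefSeq start inside a longer GENCODE gene, and hold 0 annotated exon bases.
Hk2: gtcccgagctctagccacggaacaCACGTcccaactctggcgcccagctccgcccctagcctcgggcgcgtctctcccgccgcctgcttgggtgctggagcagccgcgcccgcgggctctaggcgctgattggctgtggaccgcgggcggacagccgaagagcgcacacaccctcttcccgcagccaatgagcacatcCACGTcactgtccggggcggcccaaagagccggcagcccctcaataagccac
Ldha: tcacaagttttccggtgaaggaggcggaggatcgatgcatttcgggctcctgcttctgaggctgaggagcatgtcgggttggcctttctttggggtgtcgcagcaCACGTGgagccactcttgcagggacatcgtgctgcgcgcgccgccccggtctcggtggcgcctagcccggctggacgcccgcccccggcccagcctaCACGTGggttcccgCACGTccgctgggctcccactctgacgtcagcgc
Pgk1: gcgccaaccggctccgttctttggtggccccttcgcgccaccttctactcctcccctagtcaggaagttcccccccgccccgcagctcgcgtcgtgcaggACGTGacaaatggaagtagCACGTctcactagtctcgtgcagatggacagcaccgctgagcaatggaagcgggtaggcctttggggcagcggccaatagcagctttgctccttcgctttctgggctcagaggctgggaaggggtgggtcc
Hif1a: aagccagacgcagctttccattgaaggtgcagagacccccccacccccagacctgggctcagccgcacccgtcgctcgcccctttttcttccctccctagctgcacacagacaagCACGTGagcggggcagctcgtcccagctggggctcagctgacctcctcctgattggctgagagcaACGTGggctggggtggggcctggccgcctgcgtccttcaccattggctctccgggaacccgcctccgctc
The Hk2 window held 2 matches, the Ldha window 5, the Pgk1 window 2 and the Hif1a window 3. CACGTG reads the same on both strands and counts as 2.

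In both libraries, 7 of the 8 enzymes and Hif1a were higher in Cst7>P2ry12 cells than in P2ry12>Cst7 cells, while Hk2 was not. Levels are in CPM, the UMIs of a gene scaled to a total of 1000000 UMIs over the cells summed. Summed over the 8 enzymes, the level was 4171 CPM (4061 to 4283) in Cst7>P2ry12 cells and 1786 CPM (1667 to 1911) in P2ry12>Cst7 cells of the photoconversion library, a ratio of 2.34 (2.17 to 2.51). In the control library it was 4769 CPM (4658 to 4882) in Cst7>P2ry12 cells and 2111 CPM (2014 to 2212) in P2ry12>Cst7 cells, a ratio of 2.26 (2.14 to 2.38). A gene with at least 100 UMIs was counted as past the threshold at a ratio of 1.5. By that rule 7 of 8 enzymes were past it on the higher side in each library, where 15.5% of 1869 genes in the photoconversion library and 13.3% of 2477 genes in the control library were. On the lower side 0 of 8 enzymes were past it, against 23.6% of genes in the photoconversion library and 27.5% in the control library. The median log2 ratio of the 8 enzymes was 1.32 in the photoconversion library and 1.16 in the control library, beside medians over all genes counted of -0.05 and -0.19. TMM scaling put the shift over all genes at -0.35 in the photoconversion library and -0.36 in the control library on the log2 scale, and relative to it the enzyme log2 ratios were 1.57 and 1.54, against 1.22 and 1.18 from CPM.

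**Figure D1:**
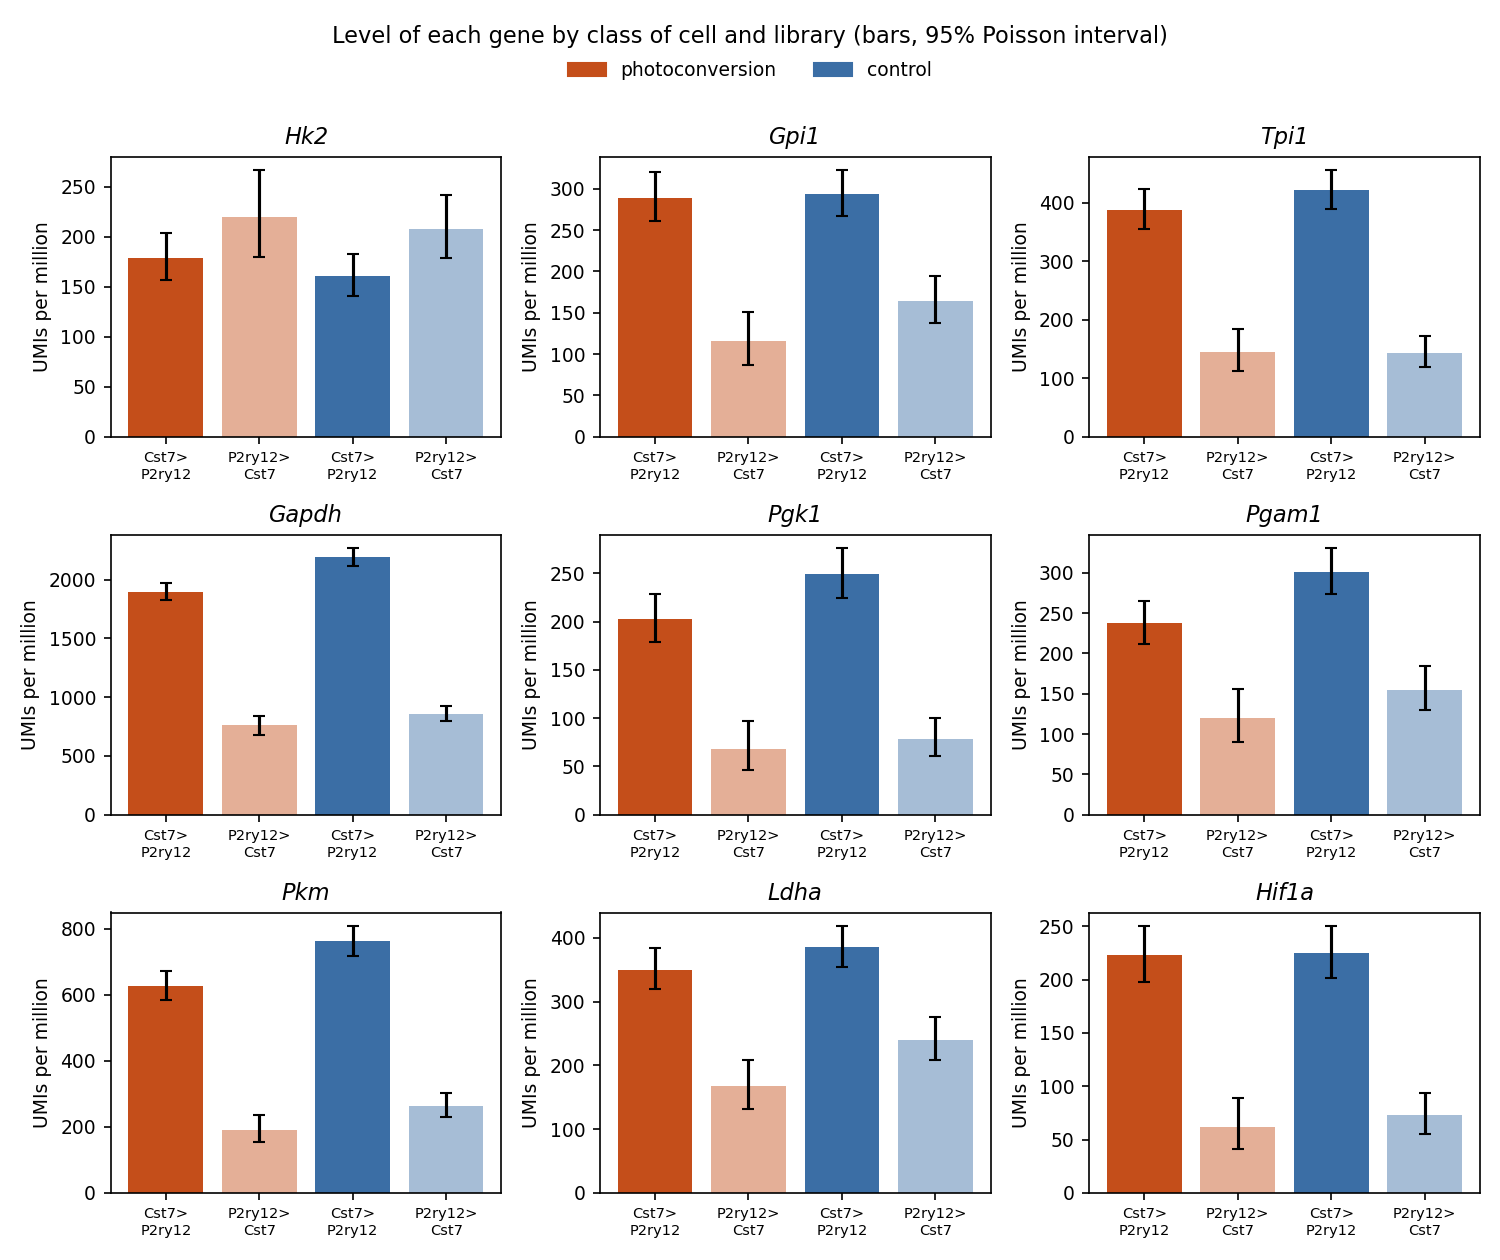
Level of each gene in CPM (vertical axes, from 0) in Cst7>P2ry12 cells (dark bars) and P2ry12>Cst7 cells (pale bars) of the photoconversion (orange) and control (blue) libraries, 1 library each; error bars are 95% Poisson intervals. In 8 panels both dark bars stand above both pale bars with intervals apart, and Hk2 is the panel where they do not.

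The first step of the pathway is catalysed by hexokinase 2, the product of Hk2, which phosphorylates glucose and can dock on mitochondria. Hk2 had 179 CPM (157 to 204) in Cst7>P2ry12 cells and 220 CPM (180 to 267) in P2ry12>Cst7 cells of the photoconversion library. It had 161 CPM (141 to 183) in Cst7>P2ry12 cells and 208 CPM (179 to 242) in P2ry12>Cst7 cells of the control library. The 4 intervals all overlapped one another. The log2 ratio was -0.30 (-0.64 to 0.05) in the photoconversion library and -0.37 (-0.66 to -0.08) in the control library, and it changed sign under median-of-ratios scaling (0.07 and 0.02), so no direction is given for Hk2. Its share of the UMIs of the 8 enzymes does not depend on scaling. That share was 4.30% (3.78 to 4.87) in Cst7>P2ry12 cells and 12.3% (10.2 to 14.8) in P2ry12>Cst7 cells of the photoconversion library. It was 3.37% (2.96 to 3.82) in Cst7>P2ry12 cells and 9.86% (8.52 to 11.3) in P2ry12>Cst7 cells of the control library.

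Next come Gpi1, which isomerises glucose 6-phosphate, and Tpi1, which interconverts the triose phosphates. Gpi1 had 289 CPM (261 to 320) in Cst7>P2ry12 cells and 115 CPM (86.8 to 151) in P2ry12>Cst7 cells of the photoconversion library, against 294 CPM (267 to 323) and 164 CPM (138 to 194) in the same classes of the control library. Its ratio between classes was 2.51 (1.88 to 3.40) in the photoconversion library and 1.79 (1.47 to 2.18) in the control library. Tpi1 had 389 CPM (356 to 424) in Cst7>P2ry12 cells and 145 CPM (113 to 184) in P2ry12>Cst7 cells of the photoconversion library, against 422 CPM (389 to 457) and 144 CPM (119 to 172) in those classes of the control library. Each gene was thus high in both sums of Cst7>P2ry12 cells and low in both sums of P2ry12>Cst7 cells, and within a class the intervals of the libraries overlapped.

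Gapdh encodes the NAD-dependent dehydrogenase in the middle of the pathway and Pgk1 the kinase of its first ATP-yielding step. Gapdh had 1896 CPM (1823 to 1972) in Cst7>P2ry12 cells and 759 CPM (682 to 842) in P2ry12>Cst7 cells of the photoconversion library. It had 2193 CPM (2118 to 2270) in Cst7>P2ry12 cells and 857 CPM (795 to 922) in P2ry12>Cst7 cells of the control library. The ratios of 2.50 (2.23 to 2.80) in the photoconversion library and 2.56 (2.36 to 2.78) in the control library differed by less than counting error. Pgk1 had 202 CPM (179 to 228) in Cst7>P2ry12 cells and 68.4 CPM (46.8 to 96.6) in P2ry12>Cst7 cells of the photoconversion library, against 249 CPM (225 to 276) and 78.5 CPM (60.7 to 99.9) in those classes of the control library. Its ratio was 2.96 (2.04 to 4.41) in the photoconversion library and 3.18 (2.44 to 4.19) in the control library. Gapdh was the most widely detected of the 9: in the photoconversion library 91.7% of Cst7>P2ry12 cells and 63.9% of P2ry12>Cst7 cells had a UMI, and in the control library 92.3% and 63.4%. Cells of the first class were deeper. Median depth was 5852 and 2739 UMIs in the classes of the photoconversion library and 4655 and 2206.5 in those of the control library. Every class of each library held Gapdh UMIs, so these shares have no background to be read against.

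Pgam1, the phosphoglycerate mutase, had 237 CPM (212 to 265) in Cst7>P2ry12 cells and 120 CPM (90.5 to 156) in P2ry12>Cst7 cells of the photoconversion library, against 301 CPM (274 to 331) and 155 CPM (129 to 184) in those classes of the control library. Its ratio was 1.98 (1.49 to 2.68) in the photoconversion library and 1.95 (1.60 to 2.39) in the control library. Pkm, which encodes the pyruvate kinase of most tissues, had 627 CPM (585 to 671) in Cst7>P2ry12 cells and 190 CPM (153 to 234) in P2ry12>Cst7 cells of the photoconversion library, against 763 CPM (719 to 809) and 264 CPM (231 to 301) in those classes of the control library. Its class ratio was 3.29 (2.64 to 4.15) in the photoconversion library and 2.89 (2.50 to 3.35) in the control library. The counts do not separate the Pkm splice forms.

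Ldha, the lactate dehydrogenase subunit that favours lactate formation, had 350 CPM (319 to 384) in Cst7>P2ry12 cells and 167 CPM (132 to 208) in P2ry12>Cst7 cells of the photoconversion library. In the control library it had 386 CPM (355 to 419) in Cst7>P2ry12 cells and 240 CPM (208 to 276) in P2ry12>Cst7 cells. The class ratio was 2.10 (1.65 to 2.71) in the photoconversion library and 1.60 (1.36 to 1.89) in the control library. The log2 difference of these ratios, photoconversion minus control, was 0.39 (-0.03 to 0.81), and for Gpi1 it was 0.49 (-0.01 to 0.98). For each of the 9 genes and for their summed enzymes (0.05, -0.08 to 0.18) that interval held 0. Gapdh, Pgk1, Tpi1, Ldha and Pgam1 have processed pseudogenes in the mouse genome, and how reads shared with such copies were counted is not given in the sources used here.

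Hif1a had 223 CPM (198 to 250) in Cst7>P2ry12 cells and 62.0 CPM (41.5 to 89.1) in P2ry12>Cst7 cells of the photoconversion library. In the control library it had 225 CPM (201 to 251) in Cst7>P2ry12 cells and 72.6 CPM (55.5 to 93.3) in P2ry12>Cst7 cells. The levels of Cst7>P2ry12 cells were thus nearly equal in both libraries. Those of P2ry12>Cst7 cells rested on 29 and 61 UMIs, with overlapping intervals too wide to show equality. The class ratio was 3.59 (2.45 to 5.46) in the photoconversion library and 3.10 (2.35 to 4.14) in the control library. At least 1 Hif1a UMI was found in 57.3% of Cst7>P2ry12 cells and 17.3% of P2ry12>Cst7 cells of the photoconversion library, and in 52.2% and 18.3% of those of the control library. The ratio was smaller when each cell counted equally whatever its depth, at a log2 ratio of 1.06 in the photoconversion library and 0.94 in the control library, against 1.85 and 1.63 from summed UMIs.

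The classes also differed in other measures, whose part in these ratios was not tested. Malat1, a nuclear RNA, was at 7561 CPM in Cst7>P2ry12 cells and 24621 CPM in P2ry12>Cst7 cells of the photoconversion library, and at 6456 and 24796 CPM in those of the control library. Ribosomal protein genes took 24.5% and 16.8% of UMIs in the classes of the photoconversion library and 23.7% and 15.2% in those of the control library. Among cells with Malat1 at 0.5 to 2% of their UMIs, 61 and 34 in the photoconversion library and 73 and 81 in the control library, the log2 ratio of the summed enzymes was 1.04 (0.89 to 1.20) in the photoconversion library and 0.95 (0.85 to 1.06) in the control library. In those cells that of Hif1a was 2.49 (1.49 to 3.73) in the photoconversion library and 1.99 (1.36 to 2.68) in the control library. The summed UMIs of 6 border macrophage markers were 15 in Cst7>P2ry12 cells and 1 in P2ry12>Cst7 cells of the photoconversion library and 70 and 9 in those of the control library. Of these UMIs Pf4 gave 11 and 0 in the photoconversion library and 49 and 3 in the control library, while Lyve1 gave 0 in all 4. Those of 6 endothelial markers were 116 and 8 in the photoconversion library and 108 and 288 in the control library. Without cells that had 2 or more UMIs of markers of another cell type, the log2 enzyme ratio was 1.36 (1.20 to 1.53) in the photoconversion library and 1.34 (1.23 to 1.45) in the control library. This left 81 of 157 and 91 of 133 cells in the classes of the photoconversion library, and 111 of 207 and 211 of 290 in those of the control library. The limit is a fixed count, so deeper cells pass it more readily and are left out. The astrocyte markers include Aldoc, itself an aldolase gene of glycolysis.

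Equal depth did not remove the difference. Each cell was thinned at random to 1000 UMIs, which left out 15 Cst7>P2ry12 and 14 P2ry12>Cst7 cells of the photoconversion library and 24 and 58 of the control library. The enzyme ratio between classes was then 2.83 (2.38 to 3.39) in the photoconversion library and 2.28 (2.02 to 2.56) in the control library. The median cell held 4 enzyme UMIs per 1000 in the Cst7>P2ry12 class and 1 in the P2ry12>Cst7 class of the photoconversion library, against 4 and 2 in those classes of the control library. No enzyme UMI was left in 6 of 142 Cst7>P2ry12 cells and 36 of 119 P2ry12>Cst7 cells of the photoconversion library, and in 10 of 183 and 49 of 232 of the control library. When the class was called again from the thinned counts the log2 enzyme ratios were 1.40 in the photoconversion library and 1.06 in the control library, against 1.22 and 1.18 from all UMIs.

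**Figure D2:**
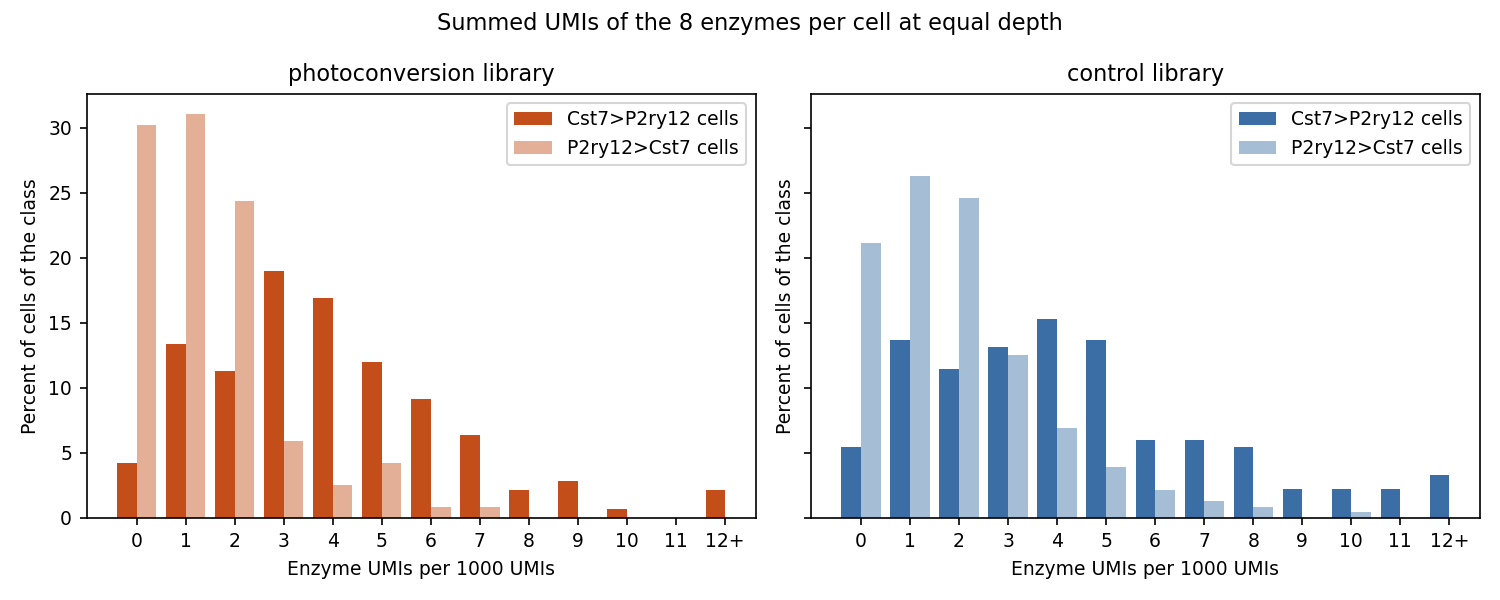
Percent of the cells of each class (vertical axis) by their summed UMIs of the 8 enzymes after thinning to 1000 UMIs (horizontal axis, 12 or more pooled), in the photoconversion library (left) and the control library (right), with Cst7>P2ry12 cells in dark and P2ry12>Cst7 cells in pale bars. The median of the dark bars is 4 enzyme UMIs in each library, and that of the pale bars 1 in the photoconversion and 2 in the control library.

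At equal depth Gapdh had a class ratio of 4.05 (3.00 to 5.55) in the photoconversion library, above the 2.50 from all UMIs, and 2.69 (2.25 to 3.23) in the control library. With a second random draw these ratios were 3.39 (2.54 to 4.59) and 3.09 (2.54 to 3.78). Thinning also gives each cell the same weight. Thinned Hif1a had a ratio of 2.61 (1.20 to 6.28) in the photoconversion library, from 28 and 9 UMIs, and 3.30 (1.78 to 6.44) in the control library, from 39 and 15 UMIs. It was detected in 16.2% of Cst7>P2ry12 cells and 7.56% of P2ry12>Cst7 cells of the photoconversion library, and in 18.0% and 6.47% of those of the control library. Thinned Hk2 had ratios of 1.02 (0.60 to 1.77) and 0.69 (0.43 to 1.10) in the photoconversion and control libraries. Thinned Ldha in the control library was under the 1.5-fold threshold, at 1.20 (0.80 to 1.79) with an interval that included 1, but with a second random draw it was at 1.57 (1.07 to 2.33).

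**Figure D3:**
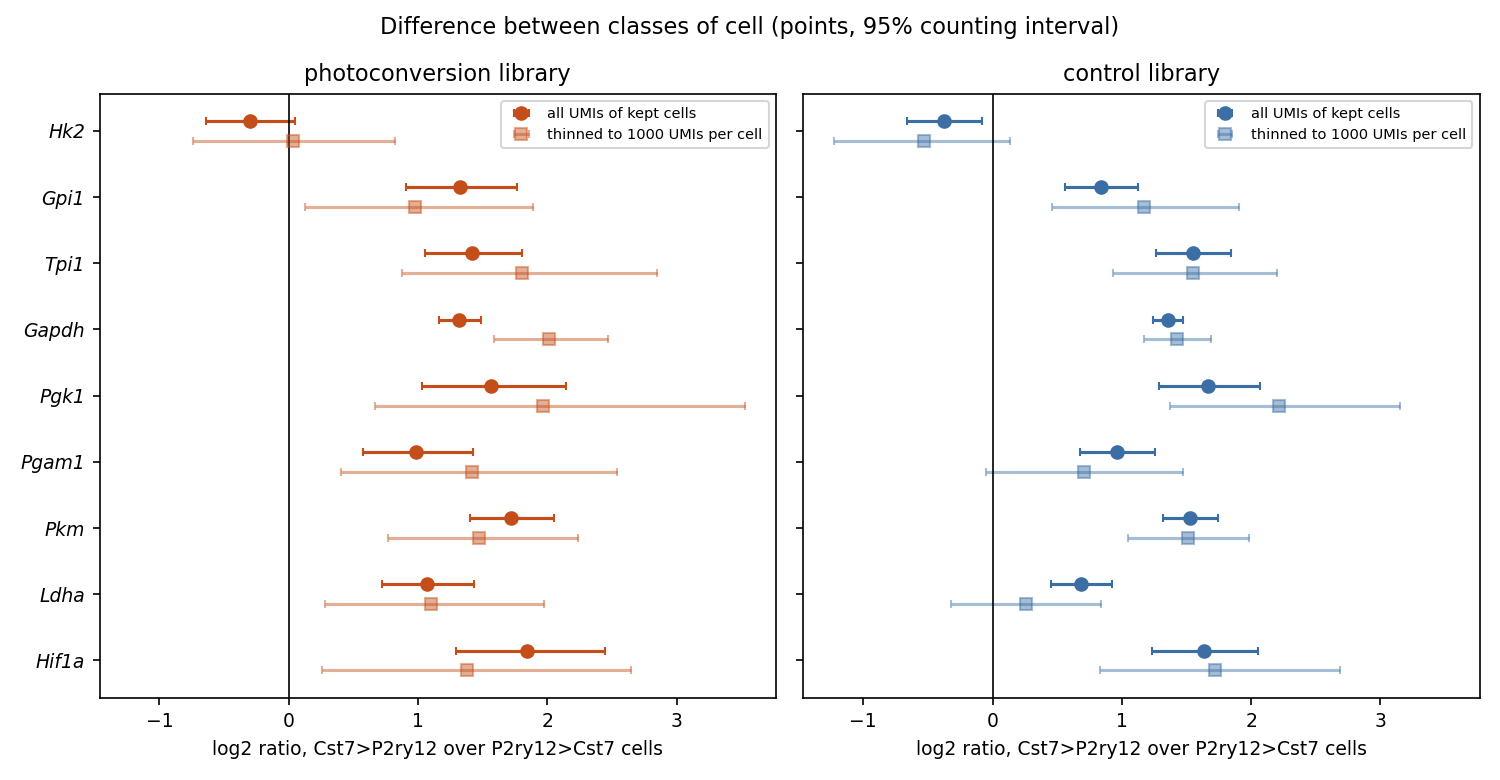
Log2 ratio of the level in Cst7>P2ry12 cells over that in P2ry12>Cst7 cells (horizontal axis) for each gene, from all UMIs (circles) and after thinning to 1000 UMIs per cell (squares), in the photoconversion library (left) and the control library (right); lines are 95% counting intervals. Circles of 8 genes lie to the right of 0 in both libraries, and those of Hk2 lie at -0.30 and -0.37.

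The summed enzymes were higher in Cst7>P2ry12 cells in each range of depth, but by differing amounts. Below 1000 UMIs the intervals overlapped in the photoconversion library, at 2932 CPM (1992 to 4162) and 1803 CPM (1069 to 2849). Above 10000 UMIs the levels were 4469 and 3043 CPM in 57 and 5 cells of the photoconversion library. In the control library they were 5173 and 3414 CPM there, in 63 and 2 cells. Among cells of 2000 to 5000 UMIs, the summed enzymes were at 3822 CPM (3518 to 4144) in 45 Cst7>P2ry12 cells and 1486 CPM (1325 to 1662) in 66 P2ry12>Cst7 cells of the photoconversion library, and at 3668 CPM (3397 to 3954) in 56 and 2080 CPM (1932 to 2236) in 107 cells of the control library. Among cells of 5000 to 10000 UMIs they were at 3302 CPM (3061 to 3556) in 28 Cst7>P2ry12 cells and 1870 CPM (1659 to 2099) in 23 P2ry12>Cst7 cells of the photoconversion library, and at 4307 CPM (4076 to 4549) in 38 and 2380 CPM (2214 to 2555) in 50 cells of the control library. Hif1a in that range was at 261 CPM (197 to 340) and 58.6 CPM (26.8 to 111) in the classes of the photoconversion library and at 203 CPM (155 to 261) and 75.2 CPM (48.2 to 112) in those of the control library. In cells of 1000 to 2000 UMIs Hif1a rested on 1 UMI and 4 UMIs in the classes of the photoconversion library and 5 and 6 in those of the control library, so no difference was detectable at that depth.

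Cells were then set out from those with Cst7 and no P2ry12 UMI to those with P2ry12 and no Cst7 UMI. In the photoconversion library the summed enzymes were at 3022 CPM (2636 to 3448) in 32 cells with no P2ry12, 4238 CPM (4124 to 4355) in 125 other Cst7>P2ry12 cells, 1897 CPM (1749 to 2054) in 74 P2ry12>Cst7 cells with some Cst7 and 1543 CPM (1349 to 1758) in 59 cells with no Cst7. In the control library these levels were 4661 CPM (4271 to 5078) in 50 cells, 4778 CPM (4662 to 4896) in 157, 2247 CPM (2127 to 2372) in 141 and 1802 CPM (1641 to 1974) in 149. Among these groups the main step lay at the change of class, where depth also differed. Median depth was 9337 UMIs before the step and 3635.5 after it in the photoconversion library, and 8436 and 4216 in the control library. The part of depth in this step was not tested. Tied cells with UMIs of both genes were at 1960 CPM (1407 to 2659) in 6 photoconversion cells and 4318 CPM (3767 to 4926) in 13 control cells. Among P2ry12>Cst7 cells those with no Cst7 were the lower ones, with intervals apart in the control library and just overlapping in the photoconversion library. Median depth in the cells at either end was 1524 UMIs without P2ry12 and 2213 without Cst7 in the photoconversion library and 1523.5 and 1297 in the control library.

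In CPM, Hk2 was lower at the first of these ends, with intervals apart in the control library and overlapping in the photoconversion library. It was at 82.4 CPM (30.2 to 179) in cells with no P2ry12 and 224 CPM (154 to 315) in cells with no Cst7 of the photoconversion library, and at 71.2 CPM (30.7 to 140) and 238 CPM (182 to 306) in those of the control library. The cells with no P2ry12 gave 6 Hk2 UMIs in the photoconversion library and 8 in the control library. Hif1a was highest in Cst7>P2ry12 cells that held some P2ry12, at 228 CPM (202 to 256) in the photoconversion library and 235 CPM (210 to 263) in the control library. It was at 137 CPM (65.9 to 253) and 97.9 CPM (48.8 to 175) in the cells of those libraries with no P2ry12, whose median depth was lower. Border macrophage markers gave 0 UMIs in the cells with no P2ry12 of the photoconversion library and 47 in those of the control library, and endothelial markers 86 and 81, whose part in these levels was not tested.

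**Figure D4:**
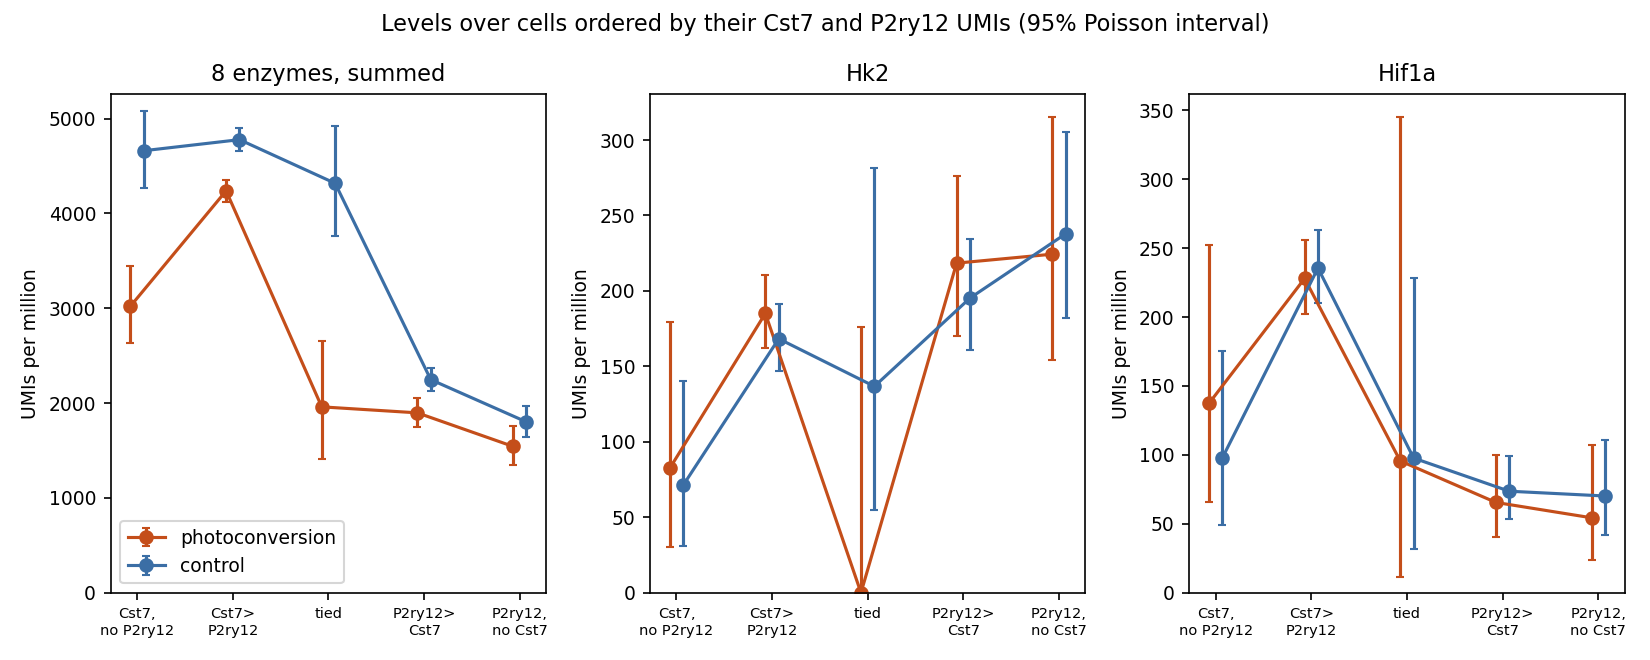
Level in CPM (vertical axes, from 0) of the 8 enzymes summed, Hk2 and Hif1a in cells ordered by their Cst7 and P2ry12 UMIs (horizontal axis), in the photoconversion (orange) and control (blue) libraries; error bars are 95% Poisson intervals and lines join the points of a library. The enzymes step down at the change of class while Hk2 is lowest at the left end in the control library, and the tied point rests on 6 photoconversion and 13 control cells.

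Between the libraries the members differed little. Summed enzymes were at 3527 CPM (3441 to 3615) in the photoconversion library and 3778 CPM (3701 to 3856) in the control library, a log2 ratio of -0.10 (-0.15 to -0.05). Of the 8 enzymes 3 were higher and 5 lower, near the share over all genes, of which 39.5% of 4007 were higher. Of the 8 enzymes 0 were past 1.5-fold, where 1.62% of these genes were past it on the higher and 3.29% on the lower side. Their median log2 ratio was -0.11, against -0.06 over all genes counted. Pgam1 had 208 CPM in the photoconversion library and 247 CPM in the control library, a log2 ratio of -0.25 (-0.44 to -0.06). Thinned to 1000 UMIs it was at 0.33 (-0.22 to 0.87) in one random draw and -0.07 (-0.56 to 0.41) in a second. Pkm had 508 CPM in the photoconversion library and 579 CPM in the control library, a log2 ratio of -0.19 (-0.31 to -0.07). Gapdh had 1586 CPM in the photoconversion library and 1699 CPM in the control library, a log2 ratio of -0.10 (-0.17 to -0.03). The intervals of the other 5 enzymes held 0. Hif1a had 178 CPM (159 to 198) in the photoconversion library and 164 CPM (149 to 181) in the control library, a log2 ratio of 0.11 (-0.10 to 0.33). Without the 11 barcodes also found in the control library the log2 ratio of the summed enzymes was -0.15 (-0.20 to -0.10), and among cells with Malat1 at 0.5 to 2% of UMIs it was -0.0003 (-0.06 to 0.06). Without cells that had 2 or more UMIs of markers of another cell type it was -0.29 (-0.37 to -0.21). That fixed count leaves out deeper cells more readily, and kept 191 of 317 photoconversion cells and 358 of 555 control cells.

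The libraries also differed in how many UMIs came from each class. Cst7>P2ry12 cells gave 72.1% of kept UMIs in the photoconversion library and 60.6% in the control library. In Cst7>P2ry12 cells the log2 ratio of photoconversion over control was -0.19 (-0.24 to -0.14), with 1 of 8 enzymes higher, against 46.9% of 2613 genes. There 0 of 8 were past 1.5-fold, where 1.38% of these genes were past it on the higher and 2.10% on the lower side. In P2ry12>Cst7 cells the log2 ratio was -0.24 (-0.36 to -0.12), with 2 of 8 enzymes higher, against 41.9% of 1644 genes. There too 0 of 8 were past 1.5-fold, where 2.01% of these genes were past it on the higher and 4.26% on the lower side. The medians over all genes counted were -0.02 in Cst7>P2ry12 cells and -0.05 in P2ry12>Cst7 cells, against -0.17 and -0.28 for the enzymes. The sizes of both depended on the cells taken: without cells that had 2 or more UMIs of markers of another cell type they were -0.41 and -0.43, and among cells with Malat1 at 0.5 to 2% of UMIs -0.11 and -0.20. These are differences between 2 libraries. With 1 library per group, an effect of the condition cannot be told apart from other differences between the libraries.

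In Cst7>P2ry12 cells the intervals of Gapdh, Pkm, Pgk1 and Pgam1 lay under 0, from -0.21 for Gapdh to -0.34 for Pgam1, and Hk2 was at 0.16 (-0.11 to 0.42). In P2ry12>Cst7 cells those of Pkm (-0.47), Gpi1 (-0.51) and Ldha (-0.53) lay under 0, and Hk2 was at 0.08 (-0.28 to 0.44). After thinning to 1000 UMIs, Pgam1 in the first class was at 0.33 (-0.39 to 1.04) in one random draw and -0.33 (-0.94 to 0.27) in a second, and Gpi1 in the second class at 0.30 (-0.67 to 1.22) and -0.48 (-1.63 to 0.55), so thinned values gave neither a direction. Hif1a was at -0.01 (-0.25 to 0.22) in Cst7>P2ry12 cells and -0.23 (-0.92 to 0.43) in P2ry12>Cst7 cells. The difference was not the same at each depth: among Cst7>P2ry12 cells of 2000 to 5000 UMIs the enzymes were at 3822 CPM in the photoconversion library and 3668 CPM in the control library, and above 10000 UMIs at 4469 CPM (4333 to 4608) and 5173 CPM (5027 to 5321).

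**Figure D5:**
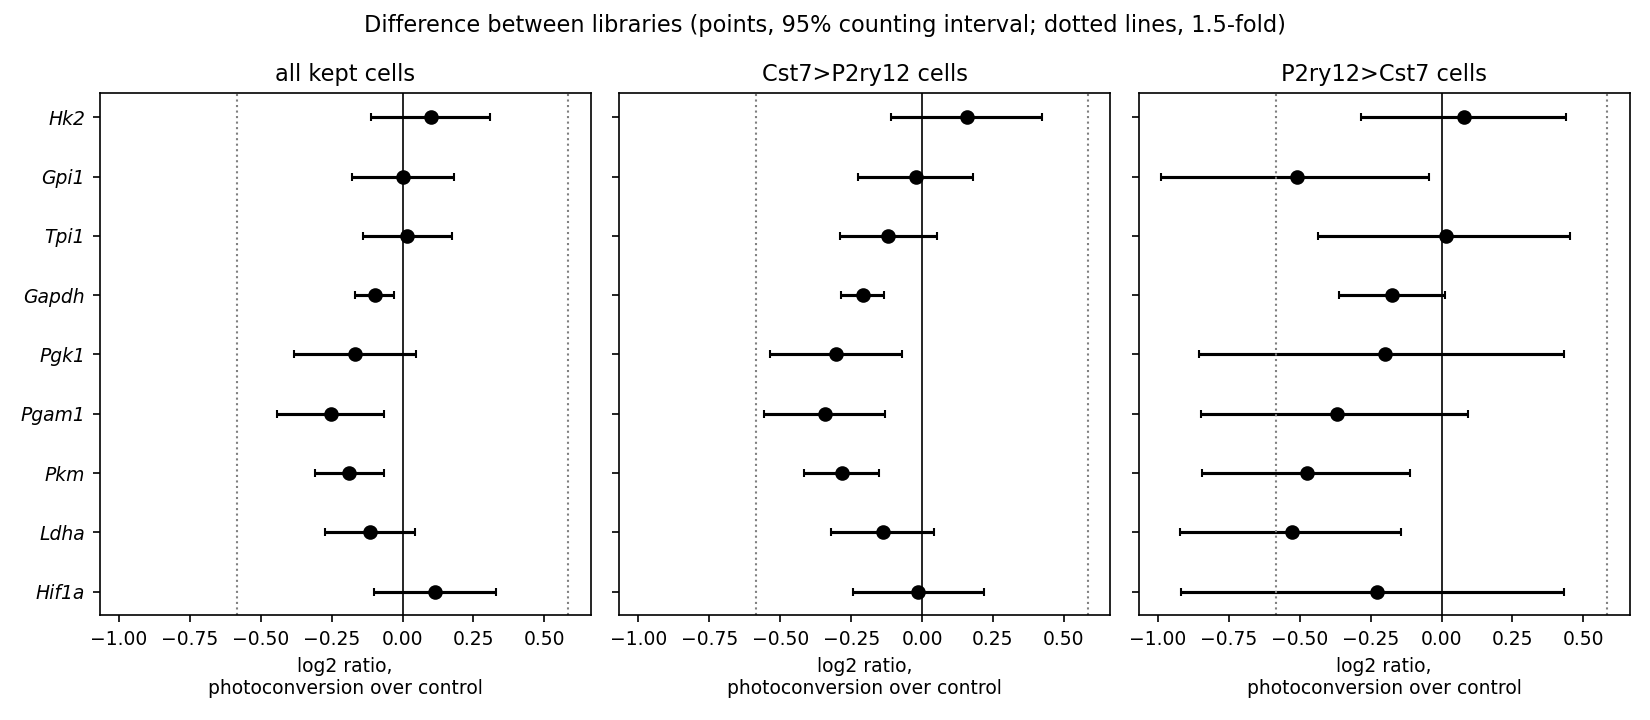
Log2 ratio of the level in the photoconversion library over that in the control library (horizontal axes) for each gene in all kept cells, Cst7>P2ry12 cells and P2ry12>Cst7 cells; lines are 95% counting intervals and dotted lines mark 1.5-fold in either direction. Each point lies between the dotted lines.

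Other genes of the pathway were taken from lists, and those with at least 100 UMIs in a comparison were counted by the same rule. Of 4 further glycolytic enzymes measured between classes, 3 were past 1.5-fold higher in Cst7>P2ry12 cells of each library, where 15.5% of all genes in the photoconversion library and 13.3% in the control library were. Aldoa, the aldolase, had 872 CPM in Cst7>P2ry12 cells and 379 CPM in P2ry12>Cst7 cells of the photoconversion library, against 931 and 430 CPM in those of the control library. Eno1, the enolase, had ratios of 2.12 in the photoconversion library and 1.70 in the control library, and Pfkl, a phosphofructokinase, of 1.60 and 1.53. Ldhb, the lactate dehydrogenase subunit that favours pyruvate formation, had ratios of 0.73 (0.61 to 0.87) and 0.74 (0.64 to 0.85) in the same libraries, on the other side from Ldha. On the log2 scale these are -0.46 and -0.44. They lie nearer to the TMM shifts of -0.35 and -0.36 than to the medians over all genes counted, -0.05 and -0.19.

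Transporters were split. Slc2a5, a fructose transporter known as a microglial gene, had 94.7 CPM in Cst7>P2ry12 cells and 406 CPM in P2ry12>Cst7 cells of the photoconversion library, a ratio of 0.23 (0.18 to 0.29). It had 109 CPM in Cst7>P2ry12 cells and 537 CPM in P2ry12>Cst7 cells of the control library, a ratio of 0.20 (0.17 to 0.24). Slc16a3, a lactate exporter, had ratios of 1.72 (1.14 to 2.69) in the photoconversion library and 2.05 (1.43 to 2.99) in the control library. Txnip, which restrains glucose uptake, had 39.7 CPM in Cst7>P2ry12 cells and 120 CPM in P2ry12>Cst7 cells of the photoconversion library, against 36.8 and 224 CPM in those of the control library.

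Of the genes of the HIF degradation machinery, Elob was past 1.5-fold higher in Cst7>P2ry12 cells of each library, at 1.62 in the photoconversion library and 1.82 in the control library, while Rbx1 and Eloc were not. Hypoxia-response genes were split. Mif, a cytokine gene, had 936 CPM in Cst7>P2ry12 cells and 218 CPM in P2ry12>Cst7 cells of the photoconversion library, a ratio of 4.29 (3.50 to 5.30), and its ratio in the control library was 3.32 (2.89 to 3.82). It was the only one of 5 measured past 1.5-fold higher in the photoconversion library. In the control library Hmox1, the haem oxygenase, at 4.76 (2.67 to 9.22) and Bnip3, a mitophagy gene, at 2.60 (1.69 to 4.14) were as well, so 3 of 7 were. In the photoconversion library both had fewer than 100 UMIs and were not counted, with ratios of 3.16 (1.45 to 8.19) for Hmox1 and 2.07 (1.16 to 3.95) for Bnip3. Over all genes 15.5% were past 1.5-fold higher in the photoconversion library and 13.3% in the control library, and 1 of 5 is near that share. P4ha1, a collagen prolyl hydroxylase, had ratios of 0.74 and 0.79, and the mitophagy receptor Bnip3l of 1.04 and 0.98. Of 4 pentose phosphate pathway genes measured, 0 were past 1.5-fold higher in either library, against 15.5% of all genes in the photoconversion library and 13.3% in the control library. On the lower side 1 of 4 was past it in the photoconversion library, near the 23.6% of all genes, and 0 of 4 in the control library. That gene, Taldo1, the transaldolase, was at 0.65 (0.50 to 0.84) in the photoconversion library and 0.93 (0.76 to 1.15) in the control library.

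Between the libraries, median log2 ratios of the 6 lists ran from -0.17 for other glycolytic enzymes to -0.0049 for glycolytic and pyruvate control genes. Pfkfb3, whose product makes an activator of phosphofructokinase, was past 1.5-fold at 42.4 CPM in the photoconversion library and 26.0 CPM in the control library, a ratio of 1.63 (1.15 to 2.31). Egln3, an oxygen-sensing prolyl hydroxylase, was at 42.4 CPM in the photoconversion library and 30.1 CPM in the control library, a ratio of 1.41 (1.01 to 1.97). By class Egln3 had 77 UMIs in Cst7>P2ry12 cells and 0 in P2ry12>Cst7 cells of the photoconversion library. In the control library it had 71 and 2, a ratio of 20.3 (5.43 to 171). In both libraries these UMIs were under the minimum of the counting rule, so Egln3 was not counted between classes. In Cst7>P2ry12 cells, which held most of its UMIs, it was at 58.8 CPM in the photoconversion library and 48.4 CPM in the control library. Past 1.5-fold on the lower side were Txnip, at 61.1 CPM in the photoconversion library and 105 CPM in the control library, and Vhl, which encodes the ligase subunit that recognises the hydroxylated factor, at 16.0 and 31.4 CPM. By the class levels given above, Txnip was lower in the photoconversion library in P2ry12>Cst7 cells but not in Cst7>P2ry12 cells. Of 6 glycolytic and pyruvate control genes measured, 1 was past 1.5-fold higher and 1 lower. Of 6 HIF pathway regulators measured, 0 were past it higher and 1 lower. Over all genes 1.62% were past it on the higher and 3.29% on the lower side. Slc2a5 was at 176 CPM in the photoconversion library and 256 CPM in the control library.

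Over the 6 sums of class and library, tied cells included, the genes whose log2 levels lay nearest to the pattern of the summed enzymes, by root mean square distance among 2103 genes, were Aplp2 (0.07), Pebp1 (0.10), Ccl6 (0.11), Anxa5 (0.14) and Cstb (0.15). Those nearest to Hif1a were Psat1 (0.16), an enzyme of serine synthesis that branches from glycolysis, Cd63 (0.30), Lrpap1 (0.32), Pld3 (0.32) and Syngr1 (0.33). Psat1 had 117 CPM in Cst7>P2ry12 cells and 29.9 CPM in P2ry12>Cst7 cells of the photoconversion library, against 121 and 38.1 CPM in those of the control library. Nearest to Hk2, a pattern added after its values were seen, were Cd180 (0.07), Eif5 (0.09), M6pr (0.12), Itga6 (0.12) and Rnf130 (0.14). The 6 sums share 2 libraries, so these likenesses are descriptions of them. The sums of tied cells rest on few UMIs: Hif1a had 2 in the photoconversion library and 7 in the control library, and Hk2 2 and 12. A single control cell held 158 of the 383 enzyme UMIs of its tied sum.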

How the data were processed

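Cortical myeloid cells were profiled in 1 library of 3 pooled mice per group. The authors deposited unnormalised UMI counts for each barcode. Per the submitters' processing notes, demultiplexing used bcl2fastq and counting used Cell Ranger against mm10; the software version was 3.0.2, per the file headers. There were 2000 barcodes per library, 31053 genes and 2038693 UMIs in the photoconversion library and 2672902 in the control library. A joint table with 4000 columns of cells was not used.

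Kept cells had at least 200 detected genes and at most 10% mitochondrial UMIs. Doublets were not removed. Counts were summed per class and library and scaled to CPM, with exact Poisson intervals for levels, conditional binomial intervals for ratios and Clopper-Pearson intervals for shares, in scipy 1.17.1. No test was made. Thinning drew 1000 UMIs per cell with a fixed seed. The steps were tested on simulated data. TMM factors came from edgeR 4.0.16. All 9 members were named, with up to 4 genes of each list by abundance and size of ratio, and the 5 nearest genes of each pattern. Some genes so chosen stand only in the counts of their lists. Members and lists were chosen with earlier results of these data known. Alternatives were other cell filters, depths, seeds, weights and scalings. Promoter windows are RefSeq's, and coordinates GENCODE's on mm10.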

Additional observations from a re-analysis of the deposited data

Results flagged for a closer look

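Tpi1 had log2 ratios of photoconversion over control of opposite sign in the classes, -0.12 (-0.29 to 0.05) in Cst7>P2ry12 cells and 0.014 (-0.44 to 0.45) in P2ry12>Cst7 cells. Both intervals held 0, and the difference was not tested.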

How the results depend on the processing

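Values are log2 ratios. No paired analysis was possible because each group has 1 library, and for the same reason no alternative left out a replicate. The class ratios of the summed enzymes and of Hif1a stayed above 0 under each alternative run, and 70 of their values and those of the library ratios moved by less than counting error. The others follow, photoconversion before control for class ratios, and the cause was not tested.

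The enzyme class ratios, 1.22 and 1.18 from all UMIs, were 1.094 and 0.8704 in cells of 2000 to 10000 UMIs, 1.089 and 1.043 without the deepest 5% of cells, 1.450 and 1.384 thinned to 500 UMIs, 1.501 and 1.303 thinned to 1000 with a second seed, 1.398 and 1.058 with the class called again, 1.571 and 1.540 under TMM, 1.594 and 1.565 under median-of-ratios scaling, and 1.372 and 1.342 with mitochondrial and ribosomal protein genes out of the total. In the photoconversion library the ratio was 1.502 thinned to 1000 and 1.399 without the 10 richest cells, and in the control library 1.273 with cells weighed equally. Hif1a class ratios, 1.85 and 1.63, were 1.062 and 0.9356 with cells weighed equally. In the photoconversion library that of Hif1a was 0.4943 (-1.11 to 2.24) thinned to 500, and in the control library 1.217 with the second seed.

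The enzyme ratio of photoconversion over control, -0.10, was -0.1971 in cells of 2000 to 10000 UMIs, -0.1481 thinned to 500, -0.1698 thinned to 2000, -0.0496 with cells weighed equally, -0.0390 under TMM and -0.0483 under median-of-ratios scaling. That of Hif1a, 0.11, was on the other side of 0 at -0.1548 thinned to 500, -0.1853 thinned to 2000 and -0.1476 with cells weighed equally.

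Alternatives chosen after seeing the data were these. With Malat1 at 0.5 to 2% of UMIs the enzyme class ratios were 1.042 and 0.9548, the Hif1a ratio in the photoconversion library 2.494 and the enzyme ratio between libraries -0.0003. Without cells with 2 or more UMIs of markers of another cell type, a fixed count that leaves out deeper cells more readily, the enzyme class ratios were 1.361 and 1.341. The ratio between libraries was -0.2877 there, and -0.1529 without shared barcodes.

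Over all results, 93 of 930 alternative values lay on the other side of 0 from the reported one, 80 of them where the reported interval held 0. The other 13, all of single genes, were these. Between libraries Gapdh was at 0.0755 in the Malat1 range, and Pgam1 at 0.0740 thinned to 500 and 0.3311 thinned to 1000. The class ratio of Hk2 in the control library was 0.0999 in the Malat1 range, 0.0017 thinned to 500 and 0.0164 under median-of-ratios scaling. In Cst7>P2ry12 cells Pgk1 was at 0.0141 thinned to 500, and Pgam1 at 0.2474 thinned to 500, 0.3253 thinned to 1000 and 0.1100 with the class called again. In P2ry12>Cst7 cells Gpi1 was at 0.3865, 0.2957 and 0.7534 under those settings. With a second seed at 1000 UMIs, Pgam1 was at -0.0706 between libraries and -0.3259 in Cst7>P2ry12 cells and Gpi1 at -0.4843 in P2ry12>Cst7 cells, so these turns depended on the random draw. Depth limits the thinned values of single genes, many of which rest on few UMIs.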

Other observations

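The barcodes with fewer than 200 detected genes, which no comparison used, held these transcripts too. Summed over 1608 such barcodes of the photoconversion library and 1340 of the control library, the 8 enzymes were at 2861 CPM (2571 to 3175) and 2568 CPM (2315 to 2841). Hk2 was at 40.3 CPM (13.1 to 94.0) in those of the photoconversion library, from 5 UMIs, and 123 CPM (72.7 to 194) in those of the control library, from 18 UMIs. Hif1a was at 72.5 CPM (33.2 to 138) and 68.1 CPM (32.7 to 125) in the same libraries. Markers of neutrophils, which the sort gate was set to leave out, gave 645 UMIs in these barcodes of the photoconversion library and 165 in those of the control library, against 9 and 5 in kept cells.

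A single tied cell of the control library held 158 of the 383 enzyme UMIs of the 58 tied cells.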
